A study of Mus musculus with 32 samples.

Results

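The populations compared here are both thymic DN1 cells of the E19.5 mouse embryo that were sorted as negative for ID2, and they differ in whether they were sorted as positive or negative for BCL11b. The comparison sets the 3 BCL11b+ID2- libraries against the 3 BCL11b-ID2- libraries, which are 6 of the 32 samples of the series and 6 of its 18 E19.5 samples. All animals carried the strain label 5x polychromILC mice, and every sample came from embryonic thymus. The remaining E19.5 groups, which also entered the gene filter and the estimate of spread and were used for levels and for 1 further contrast, were BCL11b+ID2+, BCL11b-ID2+ and BCL11blowID2low DN1 cells and DN2 cells, with 3 libraries each. The 2 compared gates were also sorted at E15.5, with 3 libraries each. The labels do not say how BCL11b and ID2 were detected, which surface antigens defined DN1, or whether embryos were pooled. Libraries of 1 gate are counted as replicates, and where they were not separate animals the p-values measure technical spread only.

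Double-negative thymocytes lack the CD4 and CD8 coreceptors, and DN1 is the earliest of their stages, holding progenitors that can still give rise to lineages other than T cells. BCL11B is a zinc finger transcription factor that is switched on as progenitors commit to the T lineage. ID2 is an inhibitor of E proteins and marks innate lymphoid cells and natural killer cells. Late fetal thymus also makes gamma-delta T cells, which rearrange the T-cell receptor gamma and delta loci and often leave the thymus already programmed for an effector function.

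RNA was amplified from sorted cells and sequenced, and all values are read counts normalised for library depth by the submitters. The 6 libraries held 3536909 to 6493344 reads in BCL11b+ID2- and 4065398 to 6155330 in BCL11b-ID2-. Mitochondrial ribosomal RNA took 42.0% to 53.5% of reads in BCL11b+ID2- and 40.9% to 50.3% in BCL11b-ID2-. Genes with at least 1 read numbered 14821 to 16469 in BCL11b+ID2- and 16642 to 17556 in BCL11b-ID2-. On log2 values the correlation between libraries was 0.823 to 0.886 over the 6 pairs within a gate and 0.665 to 0.749 over the 9 pairs across gates, so no library was closer to the other gate than to its own.

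The sorting genes matched the labels. Bcl11b (chr12:107910403-108003602, minus strand) had 2076, 1476 and 1469 in BCL11b+ID2- against 17.1, 2.89 and 28.8 in BCL11b-ID2- (log2 difference 7.01 ± 0.50 (SE), adjusted p = 1.1e-09). The gates are named for this gene, so its difference is a check of the sort and not a finding. Id2 (chr12:25093799-25097140, minus strand) was low in both gates, at 1.74, 32.1 and 24.9 in BCL11b+ID2- against 20.7, 24.6 and 18.2 in BCL11b-ID2- (log2 difference -0.73, adjusted p = 0.575, and 0.41 without BCL11b+ID2- replicate 1). In the ID2-positive gates its mean reached 1119 (BCL11b+ID2+) and 1438 (BCL11b-ID2+). Il2ra, which encodes the CD25 antigen that separates DN2 from DN1 cells, averaged 87.1 in BCL11b+ID2- and 358 in BCL11b-ID2-, and 7825 in DN2. Coordinates are GRCm38 positions, counted from 1, of the whole gene in the GENCODE annotation.

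The 2 gates differed at 2067 of 13840 genes tested, 14.9% of them, at an adjusted p under 0.05 (limma, Benjamini-Hochberg over all genes tested). Of these, 1040 were higher in BCL11b+ID2-, 7.51% of the genes tested, and 1027 were lower, 7.42%. The median absolute log2 difference was 2.23 for the genes higher in BCL11b+ID2- and 3.06 for those lower. Over all genes the median signed log2 difference was -0.05, which is no background for the absolute sizes of genes chosen by the test. Libraries of the gates did not overlap for 1020 of the higher genes and 1004 of the lower ones, where 31.6% of all genes tested had no overlap. At the low end, 62 of the higher genes had no read in any BCL11b-ID2- library and 168 of the lower genes had none in any BCL11b+ID2- library. In bulk libraries a smaller number of cells of a kind cannot be told apart from less RNA in each cell.

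**Figure D1:**
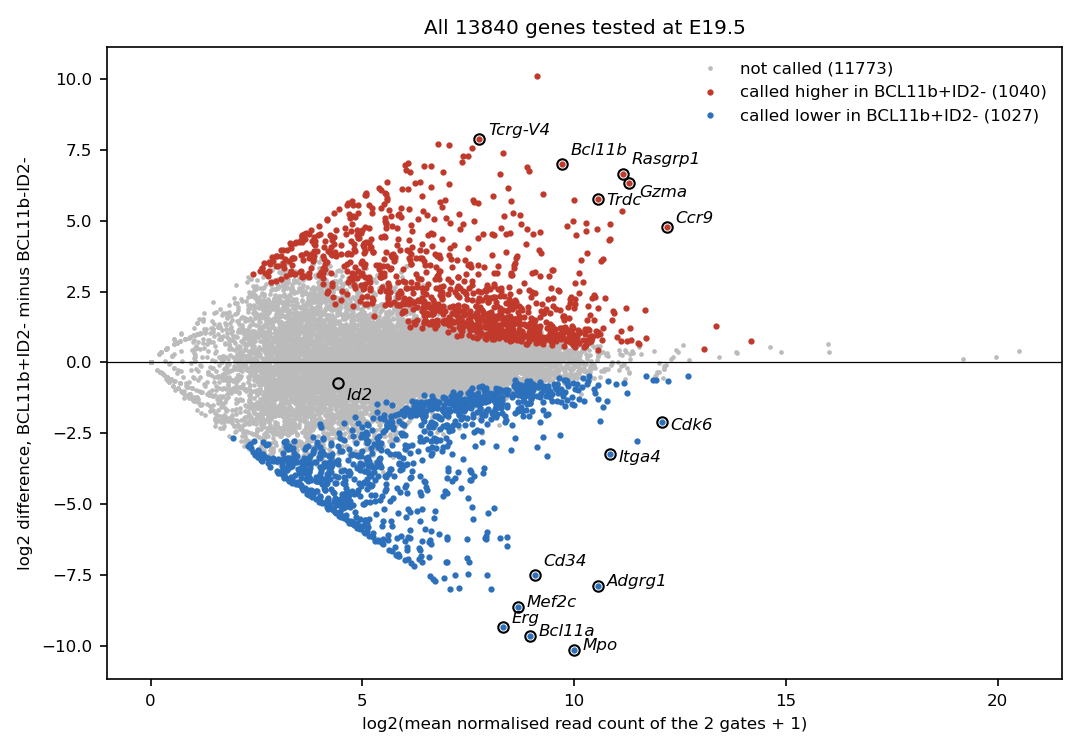
Each point is 1 of the 13840 genes tested at E19.5, with the log2 of its mean normalised read count plus 1 over both gates on the x axis and its log2 difference, BCL11b+ID2- minus BCL11b-ID2-, on the y axis. Red points are the 1040 genes called higher in BCL11b+ID2-, blue points the 1027 called lower, and circled genes are named; Mpo lies lowest at -10.15 and Ccr9 is an abundant gene at 4.78.

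T-cell receptor, T-lineage and gamma-delta T-cell genes were higher in BCL11b+ID2-, and stem-cell, myeloid and other progenitor genes were lower. Among the 15 named genes with the largest rise, 3 were T-cell receptor genes, 3 encoded transcription factors and 1 a chemokine receptor. Tcrg-V4, a gamma-chain variable segment, had 531, 428 and 335 in BCL11b+ID2- against 0, 0 and 4.80 in BCL11b-ID2- (log2 difference 7.89 ± 0.76 (SE), adjusted p = 1.1e-07). Trdv5, a delta-chain variable segment, had 159.7, 137 and 102 in BCL11b+ID2- against no read in any of the 3 BCL11b-ID2- libraries, at least 144-fold higher in BCL11b+ID2-. Where a gate had no read, the fold is a bound computed against a floor of 3 reads over its 3 libraries, and where it had 1 to 3 reads the ratio has a 95% interval that covers counting error only. Cd247, which encodes the zeta chain of the receptor complex, had 831, 1153 and 917 in BCL11b+ID2- against 17.1, 7.23 and 3.84 in BCL11b-ID2- (log2 difference 6.74 ± 0.38 (SE), adjusted p = 1.5e-11). The rule that names these 15 genes requires that libraries of the gates do not overlap.

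The transcription factors of that group included Bcl11b itself and Tox2. Tox2, an HMG-box factor, had 215, 529 and 221 in BCL11b+ID2- against 1.22, 3.62 and 0 in BCL11b-ID2- (log2 difference 7.08, adjusted p = 2.3e-06). Ccr4, the receptor for the chemokines CCL17 and CCL22, had 576, 606 and 719 in BCL11b+ID2- against 1.22, 0 and 24.0 in BCL11b-ID2- (log2 difference 7.37, adjusted p = 3.2e-06).

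Other genes of the group were Slc16a5, Sema4f, Olfr524, Mturn, Syt13, Iqch and Wnt8b. Slc16a5, a monocarboxylate transporter family gene, had 361, 386 and 398 in BCL11b+ID2- against 1.22, 0 and 2.88 in BCL11b-ID2- (log2 difference 7.54 ± 0.79 (SE), adjusted p = 3.8e-07). Sema4f, a semaphorin, had 319, 142 and 196 in BCL11b+ID2- against no read in any of the 3 BCL11b-ID2- libraries, at least 237-fold higher in BCL11b+ID2-. Olfr524, an olfactory receptor gene, had 528, 95.3 and 166 in BCL11b+ID2- against no read in any of the 3 BCL11b-ID2- libraries, at least 284-fold higher in BCL11b+ID2-. Mturn had 121, 111 and 144 in BCL11b+ID2- against no read in any of the 3 BCL11b-ID2- libraries, at least 136-fold higher in BCL11b+ID2-. All 4 were read in other E19.5 gates too: means were 119 for Mturn and 128 for Sema4f in BCL11blowID2low, and 68.7 for Olfr524 and 65.5 for Slc16a5 in DN2. Syt13, a synaptotagmin, had 411, 185 and 107 in BCL11b+ID2- against 6.10, 0 and 0 in BCL11b-ID2-. Iqch had 234, 84.6 and 67.3 in BCL11b+ID2- against no read in any of the 3 BCL11b-ID2- libraries, at least 139-fold higher in BCL11b+ID2-. Wnt8b, a WNT ligand, had 288, 50.3 and 75.6 in BCL11b+ID2- against no read in any of the 3 BCL11b-ID2- libraries, at least 149-fold higher in BCL11b+ID2-. The BCL11b+ID2- replicate 1 value was the highest of its gate for Iqch, Syt13, Wnt8b and Olfr524. Iqch did not pass DESeq2 on recovered reads (adjusted p = 0.175).

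The 15 named genes with the largest fall in BCL11b+ID2- were led by Mpo, which encodes the granule enzyme myeloperoxidase, at 0, 0 and 4.61 in BCL11b+ID2- against 1882, 2567 and 1704 in BCL11b-ID2- (log2 difference -10.15 ± 0.81 (SE), adjusted p = 6.2e-09). Bcl11a, a zinc finger paralog of Bcl11b used in B-cell and progenitor programmes, had 0, 0 and 0.92 in BCL11b+ID2- against 972, 1035 and 989 in BCL11b-ID2-, a ratio of 3249 (counting interval 583 to 128315) (log2 difference -9.65 ± 0.89 (SE), adjusted p = 5.5e-08). Both were near 0 in every BCL11b+ID2- library. Erg, an ETS factor needed by blood stem cells, had no read in any of the 3 BCL11b+ID2- libraries against 585, 629 and 712 in BCL11b-ID2-, at least 555-fold lower in BCL11b+ID2-. Mef2c, a factor of lymphoid and myeloid progenitors, had 1.74, 2.14 and 0 in BCL11b+ID2- against 709.9, 964 and 763 in BCL11b-ID2-, a ratio of 628 (counting interval 215 to 3047) (log2 difference -8.62 ± 0.74 (SE), adjusted p = 1.7e-08). Spi1, which encodes PU.1, had 0, 0 and 0.92 in BCL11b+ID2- against 287, 252 and 185 in BCL11b-ID2-, a ratio of 785 (counting interval 141 to 31022) (log2 difference -7.58, adjusted p = 7.1e-06). Bcl11a, Erg, Mef2c and Spi1 were close to or at 0 in BCL11b+ID2- and abundant in every BCL11b-ID2- library.

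Surface and signalling genes made up most of the rest. Flt3, the receptor for FLT3 ligand on multipotent progenitors, had no read in any of the 3 BCL11b+ID2- libraries against 231, 166 and 230.5 in BCL11b-ID2-, at least 181-fold lower in BCL11b+ID2-. Cd34, a progenitor sialomucin, had 1.74, 7.5 and 8.30 in BCL11b+ID2- against 994, 1249 and 987 in BCL11b-ID2- (log2 difference -7.48, adjusted p = 2.5e-07). Adgrg1, the adhesion receptor GPR56, had 1.74, 20.4 and 34.1 in BCL11b+ID2- against 2933, 3237 and 2908 in BCL11b-ID2- (log2 difference -7.89 ± 0.75 (SE), adjusted p = 9.7e-08). All of these were above 100 in every BCL11b-ID2- library and below 100 in every BCL11b+ID2- library. The neighbour of Adgrg1, Adgrg3, 3474 bases away on the same strand, had 8.68, 1.07 and 0 in BCL11b+ID2- against 529, 399 and 542 in BCL11b-ID2-. Cd33, a sialic acid-binding lectin of myeloid cells, had no read in any of the 3 BCL11b+ID2- libraries against 318, 161 and 323 in BCL11b-ID2-, at least 231-fold lower in BCL11b+ID2-. Deptor, an inhibitor of mTOR, had 0, 2.14 and 1.84 in BCL11b+ID2- against 549, 564 and 454 in BCL11b-ID2- (log2 difference -7.97, adjusted p = 1.3e-07). Map3k20, a stress-activated kinase, had 0, 0 and 0.92 in BCL11b+ID2- against 333, 259 and 335 in BCL11b-ID2-, a ratio of 1005 (counting interval 180.4 to 39702). Genes of this group were chosen among those whose libraries do not overlap between the gates.

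The last 3 of that group are made by myeloid cells. Ccl9, a chemokine, had no read in any of the 3 BCL11b+ID2- libraries against 252, 138 and 217 in BCL11b-ID2-, at least 175-fold lower in BCL11b+ID2-. Alox5ap, which presents arachidonic acid to 5-lipoxygenase, had 0, 0 and 2.77 in BCL11b+ID2- against 363, 199 and 299 in BCL11b-ID2-, a ratio of 311 (counting interval 106 to 1509) (log2 difference -7.49, adjusted p = 9.8e-08). Prg2, the eosinophil granule major basic protein, had no read in any of the 3 BCL11b+ID2- libraries against 229, 219 and 128 in BCL11b-ID2-, at least 166-fold lower in BCL11b+ID2-, and did not pass DESeq2 on recovered reads (adjusted p = 0.202).

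Promoter sequence is shown for 3 genes: Bcl11b, the gene that the gates are named for, and the genes with the largest difference in each direction among the named genes with a sequence entry, Sema4f and Mpo. It comes from the RefSeq promoter table (GRCm38.p6), as the 250 bases before the RefSeq start, less the bases that GENCODE places inside the gene (188 for Bcl11b and 203 for Mpo). Each sequence runs 5′ to 3′ on the strand of the gene. Capitals mark the ETS motif GGAAGT.
Sema4f, chr6:82939770-82940019, minus strand: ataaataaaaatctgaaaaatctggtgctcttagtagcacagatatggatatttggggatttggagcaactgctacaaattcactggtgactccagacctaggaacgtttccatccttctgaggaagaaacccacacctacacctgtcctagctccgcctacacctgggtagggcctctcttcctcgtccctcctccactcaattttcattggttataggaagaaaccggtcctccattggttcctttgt
Mpo, chr11:87793534-87793580, plus strand: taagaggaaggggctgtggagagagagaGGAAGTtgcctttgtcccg
Bcl11b, chr12:108003603-108003664, minus strand: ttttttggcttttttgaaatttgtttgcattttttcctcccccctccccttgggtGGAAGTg
The ETS motif, the TCF motif CTTTGA, the GATA motif AGATAA, the RUNX motif TGTGGT, the E-box CAGCTG and the CEBP motif TTGCGCAA were searched on both strands of the 250 bases. The Mpo and Bcl11b windows each held 1 ETS match, printed above, and 1 TCF match in the part not printed, and the Sema4f window held none of the motifs. Over the first listed promoter of each of the 27025 genes of the table, 20.0% held the ETS motif, 14% the TCF motif, 14.2% the RUNX motif, 12.8% the E-box, 10.3% the GATA motif and 0.2% the CEBP motif. A motif comparison between genes higher and lower in BCL11b+ID2- is void, because 71.2% of the higher and 74.6% of the lower genes matched a promoter entry by symbol, under the minimum of 80% set for it.

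**Figure D2:**
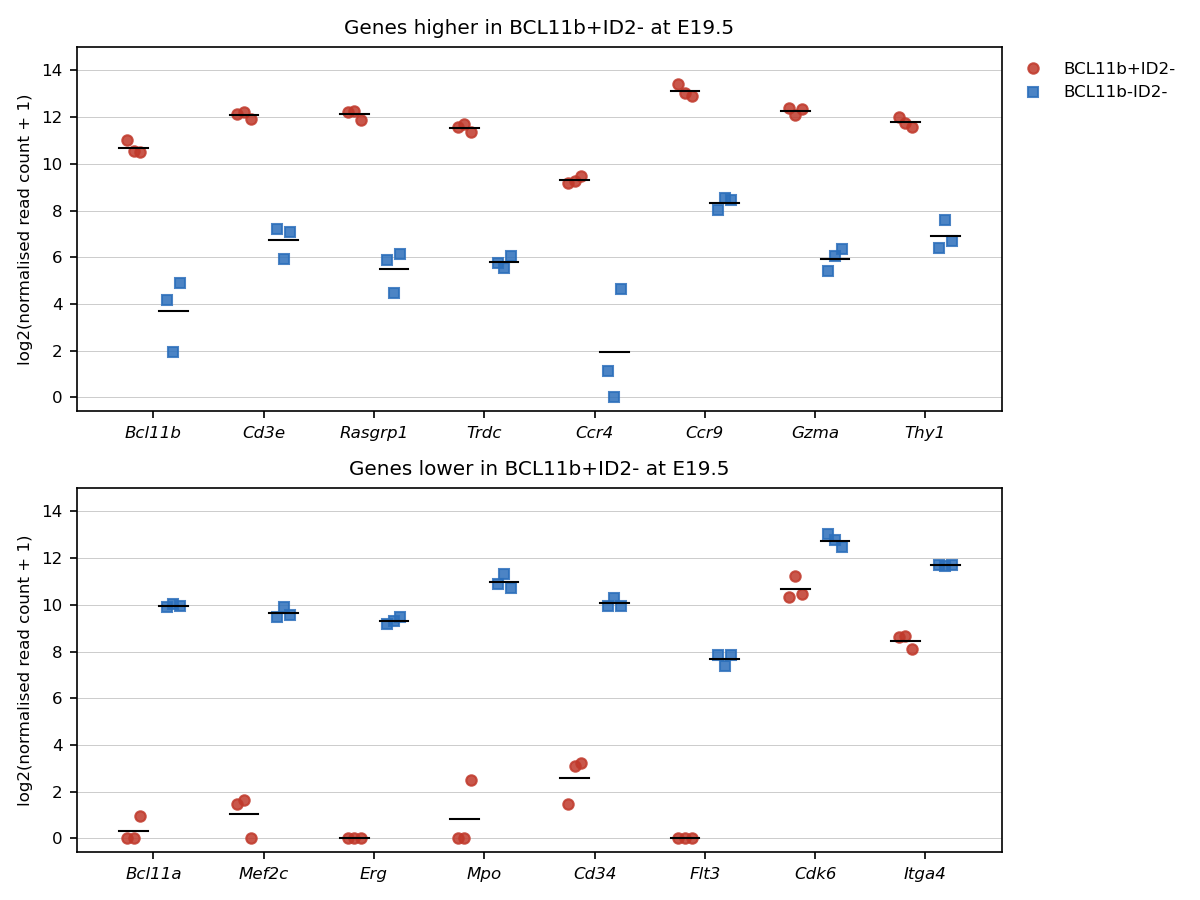
Normalised read counts of 16 named genes in each library, as log2(value + 1), with BCL11b+ID2- as red circles and BCL11b-ID2- as blue squares, and black lines for the means of 3 libraries. In the lower panel Erg and Flt3 have no read in any BCL11b+ID2- library.

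Genes of the T-cell receptor complex and its proximal signalling were mostly higher in BCL11b+ID2-. Of 25 members tested, 18 rose and none fell, with a median log2 difference of 3.44, against -0.05 over all genes. Called counts of this and the following lists stand against shares of 7.51% higher and 7.42% lower over all genes tested. Cd3e, an invariant chain of the receptor complex, had 4472, 4824 and 3889.6 in BCL11b+ID2- against 149, 60.0 and 135 in BCL11b-ID2- (log2 difference 5.35 ± 0.29 (SE), adjusted p = 6.3e-12). Rasgrp1, the exchange factor that couples the receptor to RAS, had 4800.2, 4931 and 3732 in BCL11b+ID2- against 57.3, 21.0 and 70.1 in BCL11b-ID2- (log2 difference 6.63 ± 0.29 (SE), adjusted p = 4.5e-13). Zap70, the kinase recruited to the zeta chain, had 364, 429.6 and 353 in BCL11b+ID2- against 7.32, 14.5 and 1.92 in BCL11b-ID2- (log2 difference 5.73, adjusted p = 2.1e-08). Every BCL11b+ID2- library lay more than 10 times above every BCL11b-ID2- library for these 3 genes. The 7 members that did not pass were Ptcra, Lck, Ubash3a, Trat1, Cd5, Cd27 and Cd28. Lck, the kinase that starts receptor signalling, averaged 469 in BCL11b+ID2- and 445 in BCL11b-ID2- (log2 difference 0.08, adjusted p = 0.886).

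Transcription factors of the T lineage followed the same direction, with 15 of 24 higher, 1 lower and a median log2 difference of 1.57. Lef1, a partner of beta-catenin at T-cell enhancers, had 1333, 1252 and 998 in BCL11b+ID2- against 43.9, 3.62 and 34.6 in BCL11b-ID2- (log2 difference 5.93, adjusted p = 8.4e-08). Tcf7, which encodes TCF1, averaged 3779 ± 424 (SD, n = 3) in BCL11b+ID2- and 1017 ± 235 (SD, n = 3) in BCL11b-ID2- (log2 difference 1.91, adjusted p = 1.4e-06). Gata3, a factor of T-cell commitment, averaged 1301 ± 37.8 (SD, n = 3) in BCL11b+ID2- and 138 ± 39.7 (SD, n = 3) in BCL11b-ID2- (log2 difference 3.27, adjusted p = 1.2e-09). Ikzf3 and Ets1 also rose, with log2 differences of 4.99 and 4.37. Runx1 averaged 1226 in BCL11b+ID2- and 1428 in BCL11b-ID2- and did not pass (adjusted p = 0.463). The member that fell was Hes1, a target of Notch signalling, with 55.5, 35.4 and 21.2 in BCL11b+ID2- against 251, 181 and 132 in BCL11b-ID2- (log2 difference -2.35, adjusted p = 0.0115). Its call was lost without BCL11b-ID2- replicate 1 (adjusted p = 0.0594) and without BCL11b+ID2- replicate 4 (adjusted p = 0.0539).

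Gamma-delta T-cell genes gave the largest positive median of the 25 gene lists, 4.5 on the log2 scale, with 19 of 23 tested members higher and none lower. This rank depended on the pseudocount: with a pseudocount of 8 the median was 3.08, under the 3.1 of the T-cell receptor list. Trdc, the delta constant region (chr14:54142851-54148868, plus strand), had 3011, 3288 and 2613 in BCL11b+ID2- against 52.4, 45.6 and 65.3 in BCL11b-ID2- (log2 difference 5.75 ± 0.27 (SE), adjusted p = 1e-12). Sox5, an SRY-box factor, had 222, 179 and 79.3 in BCL11b+ID2- against 4.88, 0 and 0 in BCL11b-ID2- (log2 difference 6.36, adjusted p = 0.00049). Sox13, a factor of the interleukin 17 branch of gamma-delta cells, averaged 2859 ± 408 (SD, n = 3) in BCL11b+ID2- and 126 ± 81.9 (SD, n = 3) in BCL11b-ID2- (log2 difference 4.69, adjusted p = 4e-05). Blk, a SRC-family kinase of the same branch, had 715, 378 and 491 in BCL11b+ID2- against 7.32, 3.62 and 16.3 in BCL11b-ID2- (log2 difference 5.87, adjusted p = 2.5e-07). Maf, a factor needed by that branch, had 2320.3, 2131 and 1607 in BCL11b+ID2- against 106, 79.6 and 81.6 in BCL11b-ID2- (log2 difference 4.48, adjusted p = 1.1e-09). All BCL11b+ID2- libraries exceeded all BCL11b-ID2- libraries for these genes. Il1r1, Sox4, Egr3 and Gpr132 did not pass.

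Constant and variable segments of the receptor loci rose together. All 6 gamma variable segments tested rose (median log2 difference 4.96), as did all 3 segments with a Trdv symbol (5.97). A segment read in 1 gate alone could pass the filter only through that gate, which partly sets such counts. Trdv5 averaged 133 in BCL11b+ID2- and at most 3.92 in the other E19.5 gates. Of the segments with a Trav symbol 4 of 5 rose (3.55), and of the beta segments 5 of 9 (3.34). The Trav segments that rose were Trav15-2-dv6-2, Trav16, Trav13-4-dv7 and Trav17. By their symbols, Trav15-2-dv6-2 and Trav13-4-dv7 are also delta segments. Tcrg-C1, Tcrg-C2 and Tcrg-C4 had log2 differences of 2.44, 4.81 and 4.52. Tcrg-C1 and Tcrg-C2 are near-identical copies, and the sources used here do not say how reads were split between them. Of the variable segments in the list, Tcrg-V6 averaged 66.2 in BCL11b+ID2- and had no read in BCL11b-ID2-, and Trdv4 averaged 97.3 in BCL11b+ID2- and 5.49 in BCL11b-ID2-. Il23r, the interleukin 23 receptor of interleukin 17-producing cells, averaged 54.9 in BCL11b+ID2- and 1.92 in BCL11b-ID2-. Ccr6, a chemokine receptor of the same cells, averaged 10.8 in BCL11b+ID2- and 0.32 in BCL11b-ID2-. Cd163l1, a scavenger receptor of that branch, had 843, 541 and 754 in BCL11b+ID2- against 4.88, 23.9 and 16.3 in BCL11b-ID2- (log2 difference 5.69, adjusted p = 8.8e-09).

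Alpha-beta receptor and later thymocyte genes were mixed. Of 15 tested, 8 rose, 1 fell and the median log2 difference was 1.38. Cd8a, the coreceptor alpha chain, had 394, 403 and 515 in BCL11b+ID2- against 15.9, 18.1 and 20.2 in BCL11b-ID2- (log2 difference 4.52, adjusted p = 3.9e-06). Trac, the alpha constant region, had 285, 260.3 and 196 in BCL11b+ID2- against 6.10, 42.7 and 9.60 in BCL11b-ID2- (log2 difference 4.04, adjusted p = 0.00557). Trbc1 and Trbc2, the beta constant regions, were already at means of 793 and 1805 in BCL11b-ID2-, and their log2 differences were 1.17 and 0.75. Ptcra, the pre-receptor alpha chain, averaged 3.20 in BCL11b+ID2- and 0.32 in BCL11b-ID2- and did not pass. Rag2, a subunit of the recombinase, fell, with 46.9, 17.1 and 22.1 in BCL11b+ID2- against 128, 217 and 199 in BCL11b-ID2- (log2 difference -2.71, adjusted p = 0.015). Rag1, the other subunit, averaged 215 in BCL11b+ID2- and 110.3 in BCL11b-ID2- (adjusted p = 0.0994). The Rag2 call was lost without BCL11b-ID2- replicate 2 or replicate 4 or BCL11b+ID2- replicate 2 (adjusted p = 0.0564 to 0.0633).

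Most genes on a list of stem-cell and progenitor factors, which holds transcription factors and RNA-binding proteins, fell in BCL11b+ID2-. Of 21 tested, 16 were lower and none higher, and the median log2 difference was -5.98, or -5.78 with the 6 genes that had no read in BCL11b+ID2- set at a floor of 3 reads. Besides the 4 named above, Hmga2, a chromatin protein of fetal stem cells, averaged 2.56 in BCL11b+ID2- and 359 in BCL11b-ID2- (log2 difference -7.02, adjusted p = 5.1e-05). Lyl1, a basic helix-loop-helix factor, averaged 1.77 in BCL11b+ID2- and 188 in BCL11b-ID2-. Lmo2, Tal1, Hoxa7, Gfi1b and Gata2 had no read in any BCL11b+ID2- library, with BCL11b-ID2- means of 63.6, 60.2, 81.1, 96.6 and 88.5. The RNA-binding protein genes Lin28b, Igf2bp2 and Igf2bp3 did not pass, nor did Hlf and Zfpm1. Lin28b, which blocks maturation of let-7 miRNAs in fetal cells, averaged 111 in BCL11b+ID2- and 178 in BCL11b-ID2- (adjusted p = 0.476).

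Surface genes of progenitors changed in both directions. Of 15 tested, 10 fell and 3 rose, with a median log2 difference of -1.35. Csf1r, the macrophage growth factor receptor, had 0, 3.21 and 0 in BCL11b+ID2- against 127, 166 and 189 in BCL11b-ID2-, a ratio of 150.1 (counting interval 51.4 to 728) (log2 difference -6.63, adjusted p = 9.1e-06). Kit, the stem cell factor receptor, averaged 173 ± 40.8 (SD, n = 3) in BCL11b+ID2- and 1057 ± 183 (SD, n = 3) in BCL11b-ID2- (log2 difference -2.62, adjusted p = 7e-07). The 3 that rose are carried by T cells. Thy1 had 4103, 3454 and 3059 in BCL11b+ID2- against 84.2, 193 and 102 in BCL11b-ID2- (log2 difference 4.88 ± 0.26 (SE), adjusted p = 6.3e-12). Slamf1 had 418, 401 and 324 in BCL11b+ID2- against 7.32, 6.51 and 25.9 in BCL11b-ID2- (log2 difference 5.00, adjusted p = 8.1e-06). Il7r, the interleukin 7 receptor alpha chain, had 816, 329 and 352 in BCL11b+ID2- against 176, 96.2 and 208 in BCL11b-ID2- (log2 difference 1.58, adjusted p = 0.00154). The last of these differed least, and its BCL11b+ID2- replicate 1 value was the highest of the 3 in that gate.

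Myeloid genes fell as a group, with 12 of 18 lower, 1 higher and a median log2 difference of -3.85. The granule proteases Elane, Prtn3 and Ctsg had no read in BCL11b+ID2- and averaged 87.1, 95.8 and 64.7 in BCL11b-ID2-. Lyz2, lysozyme, had no read in any of the 3 BCL11b+ID2- libraries against 79.3, 134 and 92.2 in BCL11b-ID2-, at least 88.0-fold lower in BCL11b+ID2-. Tyrobp, the adaptor DAP12 of myeloid and NK receptors, had 3.47, 6.43 and 15.7 in BCL11b+ID2- against 561, 600.4 and 630.0 in BCL11b-ID2- (log2 difference -6.18 ± 0.48 (SE), adjusted p = 3.3e-09). Fcer1g, the Fc receptor gamma chain, had 3.47, 13.9 and 14.8 in BCL11b+ID2- against 249, 216 and 243 in BCL11b-ID2- (log2 difference -4.54, adjusted p = 5.4e-07). The gene that rose was Ccr2, a chemokine receptor also carried by lymphoid cells, with 408, 500.3 and 311 in BCL11b+ID2- against 109, 62.9 and 109 in BCL11b-ID2- (log2 difference 2.12, adjusted p = 1.8e-05). Summed over the list, values were 467 to 756 in BCL11b+ID2- and 3326 to 4639.7 in BCL11b-ID2-. Cebpe, Cebpb and Ms4a3, also without reads in BCL11b+ID2-, were too low in all gates to be tested. Cd14 had no read in BCL11b-ID2-. Whether these transcripts came from progenitors or from separate myeloid cells in the BCL11b-ID2- gate was not tested.

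Dendritic-cell and B-lineage genes were likewise lower in BCL11b+ID2-, from small values. Of 16 dendritic-cell and antigen-presentation genes tested, 8 fell and none rose (median log2 difference -1.77), and 5 fell without BCL11b+ID2- replicate 1 or without BCL11b-ID2- replicate 4. Ly6d, a surface antigen of early B-cell and dendritic-cell precursors, had 0, 0 and 10.1 in BCL11b+ID2- against 149, 152 and 102 in BCL11b-ID2-. Cd74, the class II invariant chain, had 12.1, 0 and 79.3 in BCL11b+ID2- against 307, 464 and 295 in BCL11b-ID2- (log2 difference -5.10, adjusted p = 0.00416). H2-Aa, a class II chain, had 0, 5.36 and 60.0 in BCL11b+ID2- against 132, 111 and 110.4 in BCL11b-ID2-, and its call was lost by edgeR and DESeq2 on recovered reads (adjusted p = 0.138 and 0.267) and without any 1 library except BCL11b+ID2- replicate 4 (adjusted p = 0.077 to 0.223). Tcf4, an E protein of plasmacytoid dendritic cells, had 199.6, 213 and 155 in BCL11b+ID2- against 427, 412 and 476 in BCL11b-ID2-, and its call was lost without any 1 library except BCL11b+ID2- replicate 2 (adjusted p = 0.0573 to 0.0937). Itgax and Siglech, which define dendritic cells, had no read in BCL11b+ID2-, and Batf3 and Clec9a had none in either gate. Summed values were 583 to 672 in BCL11b+ID2- and 2099 to 2309 in BCL11b-ID2-. The part of such cells in the result was not tested.

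Of 12 B-lineage genes tested, 8 fell and 1 rose (median log2 difference -4.3, or -4.23 with 6 genes at a floor of 3 reads), and 4 fell by DESeq2 on recovered reads. Members read in BCL11b-ID2- alone passed the filter only through that gate, which partly sets this count and median. Igkc, the kappa constant region, had no read in any of the 3 BCL11b+ID2- libraries against 171, 36.9 and 111 in BCL11b-ID2-, at least 92.0-fold lower in BCL11b+ID2-. Igkc averaged at most 0.27 in every E19.5 gate other than BCL11b-ID2-. Pax5, the commitment factor of B cells, averaged 26.8 in BCL11b-ID2- and had no read in BCL11b+ID2-. Cd79a, Vpreb1 and Ms4a1 also had none in BCL11b+ID2-. The gene that rose was Ighm, the mu heavy-chain constant region, with 2143, 1813 and 1164 in BCL11b+ID2- against 848, 589 and 776 in BCL11b-ID2- (log2 difference 1.18, adjusted p = 0.0178). Its call was lost without BCL11b+ID2- replicate 1 or replicate 2 or BCL11b-ID2- replicate 2 (adjusted p = 0.0621 to 0.102). Summed values were 1311 to 2253 in BCL11b+ID2- and 1114 to 1567 in BCL11b-ID2-, with Ighm taking most of them. The part of B-lineage cells in the result was not tested.

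Genes of natural killer cells showed no common direction, with 3 of 20 higher, 3 lower and a median log2 difference of -1.02, or -0.8 with 4 genes at a floor of 3 reads. The number lower was 1 without BCL11b+ID2- replicate 2. Gzma, a granule protease, had 5371, 4333 and 5200.3 in BCL11b+ID2- against 41.5, 65.1 and 80.7 in BCL11b-ID2- (log2 difference 6.34 ± 0.31 (SE), adjusted p = 2.3e-12). Il2rb, the interleukin 2 and 15 receptor beta chain, had 594, 418 and 462 in BCL11b+ID2- against 86.6, 37.6 and 157 in BCL11b-ID2- (log2 difference 2.59, adjusted p = 2.5e-05). Nkg7, a granule membrane protein, had 146, 184 and 229 in BCL11b+ID2- against 371, 283 and 481 in BCL11b-ID2-, and its call was lost without BCL11b+ID2- replicate 1 or replicate 2 or BCL11b-ID2- replicate 1 or replicate 4 (adjusted p = 0.0777 to 0.169). Ncr1, Klrb1c and Eomes, which mark NK cells, averaged at most 6.36 in either gate.

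Genes of innate lymphoid precursors and ILC2 were more often higher, 8 of 18 against 3 lower, with a median log2 difference of 1.99. Several of them are also expressed by gamma-delta T cells. Cxcr6 had 222, 251 and 192 in BCL11b+ID2- against 3.66, 2.17 and 4.80 in BCL11b-ID2- (log2 difference 5.65, adjusted p = 1.2e-09). Rora, a nuclear receptor, had 646, 751 and 506 in BCL11b+ID2- against 14.6, 9.40 and 31.7 in BCL11b-ID2- (log2 difference 5.17, adjusted p = 3.3e-09). Pdcd1, the inhibitory receptor PD-1, had 210.0, 197 and 126 in BCL11b+ID2- against 12.2, 3.62 and 6.72 in BCL11b-ID2- (log2 difference 4.49, adjusted p = 4.5e-05). Zbtb16, which encodes PLZF, averaged 157 in BCL11b+ID2- and 22.0 in BCL11b-ID2-. Il1rl1, the receptor for interleukin 33, averaged 0.61 in BCL11b+ID2- and 44.7 in BCL11b-ID2- and fell (log2 difference -4.85). Areg and Il5 had no read in either gate.

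Markers of other cells that a thymus sort can carry were counted in the same way, against 7.51% higher and 7.42% lower over all genes tested. Of 10 mast-cell genes tested, 3 fell and none rose (median log2 difference -0.29, or 0.0 with 7 genes at a floor of 3 reads). Summed mast-cell values were 623 to 1008 in BCL11b+ID2- and 459 to 591 in BCL11b-ID2-. Cpa3, a carboxypeptidase that made up most of these, averaged 809 in BCL11b+ID2- and 378 in BCL11b-ID2- and did not pass. Of 7 erythroid and megakaryocyte genes, 1 fell: Hbb-bt, a beta-globin copy near-identical to Hbb-bs, had 0, 33.2 and 15.7 in BCL11b+ID2- against 231, 165 and 267 in BCL11b-ID2- (log2 difference -4.71, adjusted p = 0.00421). The erythroid median was -0.82 on the log2 scale, but 0.55 by edgeR and 0.56 by DESeq2 on recovered reads, and summed values were 36.4 to 243 in BCL11b+ID2- and 313 to 541 in BCL11b-ID2-. Of 8 thymic epithelial and stromal genes, 1 rose and 2 fell (median log2 difference -3.33, or -3.35 with 2 genes at a floor of 3 reads), and summed values were 648 to 1074 in BCL11b+ID2- and 1263 to 1612 in BCL11b-ID2-. Epcam had 141, 62.1 and 97.8 in BCL11b+ID2- against 8.54, 13 and 1.92 in BCL11b-ID2-. It was not called without BCL11b+ID2- replicate 1 or replicate 4 or BCL11b-ID2- replicate 4 (adjusted p = 0.055 to 0.119). Pdgfrb had 123, 109 and 28.6 in BCL11b+ID2- against 721, 718 and 493 in BCL11b-ID2-. It was not called without BCL11b+ID2- replicate 4 or any 1 of the BCL11b-ID2- libraries (adjusted p = 0.0542 to 0.117). Foxn1 and Krt8, which mark thymic epithelium, had no read in BCL11b+ID2-. The part of these cells in the differences was not tested.

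**Figure D3:**
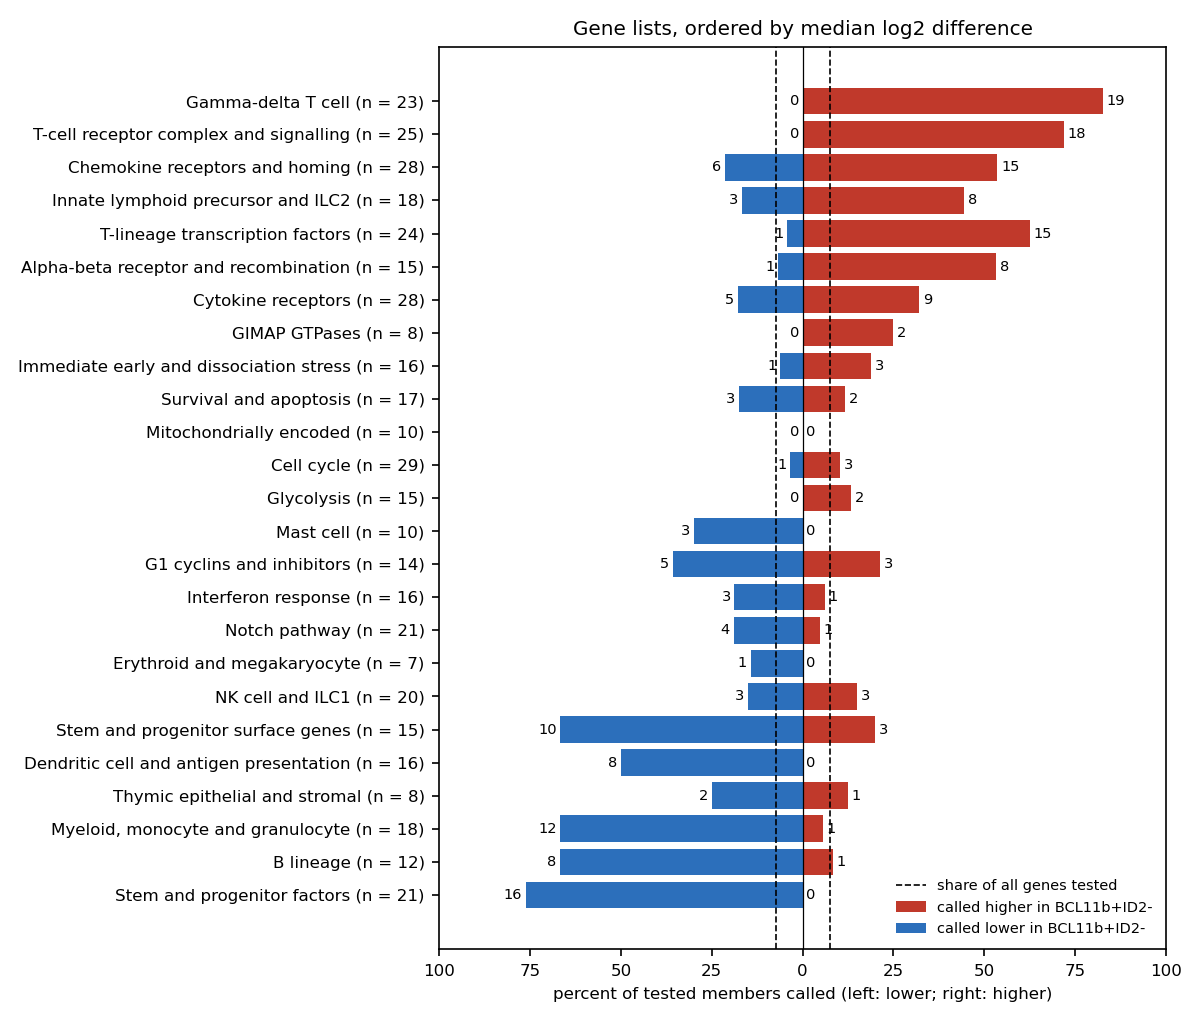
For each of the 25 gene lists, the percent of tested members called higher (red, right) and lower (blue, left) in BCL11b+ID2-, with the number called beside each bar and lists ordered by their median log2 difference. Dashed lines mark the shares over all genes tested, 7.51% higher and 7.42% lower; the gamma-delta T-cell list has 19 of 23 higher and the stem and progenitor factors 16 of 21 lower.

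Receptors that place cells in tissue changed in both directions. Of 28 chemokine receptors and adhesion genes tested, 15 rose and 6 fell, with a median log2 difference of 2.03. Without BCL11b-ID2- replicate 4, 3 fell. Ccr9, the receptor for the thymic chemokine CCL25, had 11004, 8331 and 7567 in BCL11b+ID2- against 259, 370.4 and 345 in BCL11b-ID2- (log2 difference 4.78 ± 0.40 (SE), adjusted p = 1e-08). Ccr8 had 249.9, 311 and 210.3 in BCL11b+ID2- against 18.3, 0.72 and 0 in BCL11b-ID2- (log2 difference 6.31, adjusted p = 9.2e-07). Among integrins, Itga4, the alpha 4 chain used by progenitors, had 394, 402 and 276 in BCL11b+ID2- against 3374, 3274 and 3296 in BCL11b-ID2- (log2 difference -3.23 ± 0.20 (SE), adjusted p = 5.8e-11). Itgae, the alpha E chain that binds E-cadherin, averaged 1115 ± 122 (SD, n = 3) in BCL11b+ID2- and 46.3 ± 11.6 (SD, n = 3) in BCL11b-ID2- (log2 difference 4.59). Itgb3, Itgal and Itgb2 rose by 3.61, 1.83 and 2.24 on the log2 scale. Itgb1, the beta 1 chain, had 217, 422 and 439 in BCL11b+ID2- against 704, 787 and 542 in BCL11b-ID2-. Cd44, the hyaluronan receptor that also marks DN1 cells, had 533, 1031 and 766 in BCL11b+ID2- against 1376, 1063 and 1279 in BCL11b-ID2-. The Itgb1 call was lost without BCL11b+ID2- replicate 1 or BCL11b-ID2- replicate 1 or replicate 2 (adjusted p = 0.0573 to 0.141), and the Cd44 call without BCL11b+ID2- replicate 1 or BCL11b-ID2- replicate 1 or replicate 4 (adjusted p = 0.0819 to 0.185).

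Of 28 cytokine receptors tested, 9 rose and 5 fell (median log2 difference 0.71). Ifngr1, the ligand-binding chain for interferon gamma, had 3658, 2793 and 2673 in BCL11b+ID2- against 241, 229 and 255 in BCL11b-ID2- (log2 difference 3.64 ± 0.23 (SE), adjusted p = 1.6e-10). Il27ra, a chain of the interleukin 27 receptor, had 281, 201 and 283 in BCL11b+ID2- against 2.44, 18.8 and 7.68 in BCL11b-ID2- (log2 difference 4.91, adjusted p = 2.8e-06). Il17rb, a receptor for interleukin 25, had 333, 165 and 231 in BCL11b+ID2- against 30.5, 93.3 and 63.4 in BCL11b-ID2-, with an adjusted p of 0.0487 that rose above the threshold without any 1 of the 6 libraries (0.0503 to 0.195). The receptors that fell included Il18rap, a chain of the interleukin 18 receptor, which had 12.1, 28.9 and 39.7 in BCL11b+ID2- against 309, 211 and 116 in BCL11b-ID2- (log2 difference -2.97, adjusted p = 9.5e-05). Il12rb2, a chain of the interleukin 12 receptor, had 1.74, 37.5 and 47.0 in BCL11b+ID2- against 133, 184 and 184 in BCL11b-ID2- (log2 difference -3.27, adjusted p = 0.006). Il2ra had 83.3, 60.0 and 118 in BCL11b+ID2- against 243, 398 and 434 in BCL11b-ID2- (log2 difference -2.04, adjusted p = 8.2e-05).

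In the Notch pathway, which instructs T-cell fate in thymic progenitors, 4 of 21 genes fell and 1 rose (median log2 difference -0.55), and 2 fell without BCL11b-ID2- replicate 1 or without BCL11b+ID2- replicate 4. Notch1 had 946, 519.6 and 492 in BCL11b+ID2- against 1750.2, 1296 and 1595 in BCL11b-ID2- (log2 difference -1.3, adjusted p = 0.00149). Dtx4, a ligase of the pathway, averaged 7.40 in BCL11b+ID2- and 34.1 in BCL11b-ID2-. Hes1 and Il2ra, described with other lists, were the other 2 that fell. Jag1, a Notch ligand, had 104, 137 and 145 in BCL11b+ID2- against 6.10, 2.89 and 8.64 in BCL11b-ID2- (log2 difference 4.32, adjusted p = 1.9e-06). The targets Hes5 and Nrarp had no read in BCL11b+ID2- and were too low to be tested. Of the other genes of the list too low to be tested, Dll4 had no read in BCL11b+ID2- and Heyl none in BCL11b-ID2-. Dtx1 averaged 100 in BCL11b+ID2- and 6.94 in BCL11b-ID2- and did not pass (adjusted p = 0.19).

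Replication and mitosis genes, taken as 1 list, were near the background, with 3 of 29 higher, 1 lower and a median log2 difference of 0.08 (-0.13 without BCL11b+ID2- replicate 4). That median joins members of both signs. Differences were positive for the mitosis genes, including Plk1 (0.86) and Tpx2 (0.80). They were negative for Mcm2 to Mcm7, Pcna and most other replication genes, but positive for Rrm2 (0.46) and Ccne1. Most of these differences did not pass. Mki67, a proliferation marker, had 4502, 3480.5 and 2716 in BCL11b+ID2- against 1548, 1269.5 and 1752 in BCL11b-ID2- (log2 difference 1.21, adjusted p = 5.8e-05). Top2a, a topoisomerase, had 3191, 2981 and 2917 in BCL11b+ID2- against 1233, 1450.4 and 1511 in BCL11b-ID2- (log2 difference 1.12, adjusted p = 6.1e-05). Mcm6, a helicase subunit, had 272, 636 and 778 in BCL11b+ID2- against 1393, 1566 and 1317 in BCL11b-ID2- (log2 difference -1.47, adjusted p = 0.00278). It was the member that fell, and BCL11b+ID2- replicate 1 was its lowest library. Bub1b averaged 464 in BCL11b+ID2- and 271 in BCL11b-ID2-, and its call was lost without BCL11b+ID2- replicate 1 or replicate 2 or BCL11b-ID2- replicate 2 or replicate 4 (adjusted p = 0.0832 to 0.12).

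Regulators of G1 differed more. Of 14 tested, 5 fell and 3 rose (median log2 difference -0.29, but 0.10 without BCL11b+ID2- replicate 1). Cdk6, the G1 kinase of blood progenitors, had 1284, 2385 and 1403 in BCL11b+ID2- against 8279, 6934 and 5716 in BCL11b-ID2- (log2 difference -2.08 ± 0.21 (SE), adjusted p = 2.5e-07). Ccnd1, cyclin D1, had 12.1, 10.7 and 3.69 in BCL11b+ID2- against 117, 195 and 179.6 in BCL11b-ID2- (log2 difference -4.17). Mycn had 10.4, 17.1 and 19.4 in BCL11b+ID2- against 295, 151 and 277 in BCL11b-ID2- (log2 difference -3.84). These genes separated the gates without overlap. Cdkn1a, the inhibitor p21, had 1.74, 0 and 0 in BCL11b+ID2- against 185, 211 and 96.0 in BCL11b-ID2-, a ratio of 284 (counting interval 51.0 to 11213) (log2 difference -6.81, adjusted p = 8.5e-07). Cdkn1b, the inhibitor p27, rose, with means of 451 in BCL11b+ID2- and 142 in BCL11b-ID2-. Rb1, the retinoblastoma protein gene, also rose, with means of 353 in BCL11b+ID2- and 104 in BCL11b-ID2-.

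Among 17 survival and apoptosis genes, 2 rose and 3 fell (median log2 difference 0.61), against 7.51% higher and 7.42% lower over all genes tested. Bcl2, an inhibitor of apoptosis, had 1085, 825 and 874 in BCL11b+ID2- against 123, 81.7 and 104 in BCL11b-ID2- (log2 difference 3.17 ± 0.37 (SE), adjusted p = 1.6e-06). Bcl2l11, its antagonist BIM, had 545, 525 and 630.0 in BCL11b+ID2- against 189, 194 and 207 in BCL11b-ID2- (log2 difference 1.52, adjusted p = 0.00067). Fasl, the ligand of the death receptor FAS, had 0, 0 and 0.92 in BCL11b+ID2- against 196, 67.3 and 129.7 in BCL11b-ID2-, a ratio of 426 (counting interval 76.5 to 16842). Bid had 8.68, 5.36 and 50.7 in BCL11b+ID2- against 105, 115 and 116 in BCL11b-ID2- (log2 difference -2.94). Tnfsf10 averaged 119 in BCL11b+ID2- and 286 in BCL11b-ID2-, and its call was lost without BCL11b+ID2- replicate 1 or BCL11b-ID2- replicate 2 or replicate 4 (adjusted p = 0.0569 to 0.143).

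Lists on cell state are set against the shares over all genes tested, 7.51% higher and 7.42% lower. The share called higher exceeded this for immediate early, GIMAP and glycolysis genes, and the share called lower for interferon-response genes. Each of these shares rests on few genes. Of 16 interferon-response genes 1 rose and 3 fell (median log2 difference -0.46, 0.02 without BCL11b+ID2- replicate 4), and 1 fell without BCL11b+ID2- replicate 1 or replicate 2 or BCL11b-ID2- replicate 1 or replicate 4. Of 16 immediate early genes 3 rose and 1 fell (median log2 difference 0.61, and 0.13 to 1.09 when 1 library was left out). The lowest of these medians was without BCL11b+ID2- replicate 2 and the highest without BCL11b+ID2- replicate 1. Btg2 had 559, 518 and 725 in BCL11b+ID2- against 86.6, 137 and 111 in BCL11b-ID2- (log2 difference 2.42, adjusted p = 2.1e-05). Klf2 averaged 106 in BCL11b+ID2- and 19.8 in BCL11b-ID2-. Egr1 averaged 653 in BCL11b+ID2- and 212 in BCL11b-ID2-. The Klf2 call was lost without BCL11b+ID2- replicate 4 (adjusted p = 0.0528), and the Egr1 call without BCL11b-ID2- replicate 1 or replicate 4 (adjusted p = 0.0577 to 0.0927). Of 15 glycolysis genes 2 rose, Hk1 and Pfkp, with log2 differences of 1.46 and 1.44, and the list's median was 0.0 (0.40 without BCL11b+ID2- replicate 1, -0.26 without BCL11b+ID2- replicate 2). Of 8 GIMAP GTPases 2 rose, Gimap4 and Gimap8, with log2 differences of 3.15 and 3.59, and the list's median was 0.63. No mitochondrially encoded gene of 10 tested passed (median log2 difference 0.19), and mt-Nd4 had the smallest p, with means of 6286 in BCL11b+ID2- and 4857 in BCL11b-ID2- (adjusted p = 0.115).

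Levels in the other E19.5 gates were set beside these genes. The DN2 mean was not nearer to BCL11b+ID2- than to BCL11b-ID2- for 866 of the 1040 higher genes (83.3%). The same held for 763 of the 1027 lower genes (74.3%), against 65.4% of all genes tested. Genes equally near to both gates count as not nearer. BCL11blowID2low lay nearer to BCL11b+ID2- for 664 of the higher genes (63.8%) and 650 of the lower genes (63.3%), against 53.1% of all genes. BCL11b+ID2+ lay nearer to BCL11b+ID2- for 685 of the higher genes (65.9%) and 609 of the lower genes (59.3%), against 54.4% of all genes. BCL11b-ID2+ lay nearer to BCL11b+ID2- for 582 of the higher genes (56.0%) and 573 of the lower genes (55.8%), against 52.9% of all genes. Of the genes lower in BCL11b+ID2-, Adgrg1 averaged 2277, Cdk6 8188 and Itga4 4923 in DN2, near their BCL11b-ID2- means of 3026, 6976 and 3315. Mpo was lower in DN2, at 193, than its BCL11b-ID2- mean of 2051. In BCL11blowID2low, Cd3e averaged 5744 and Trdc 2509.8, near their BCL11b+ID2- means of 4395 and 2971. These are descriptions, with no test between those gates.

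**Figure D4:**
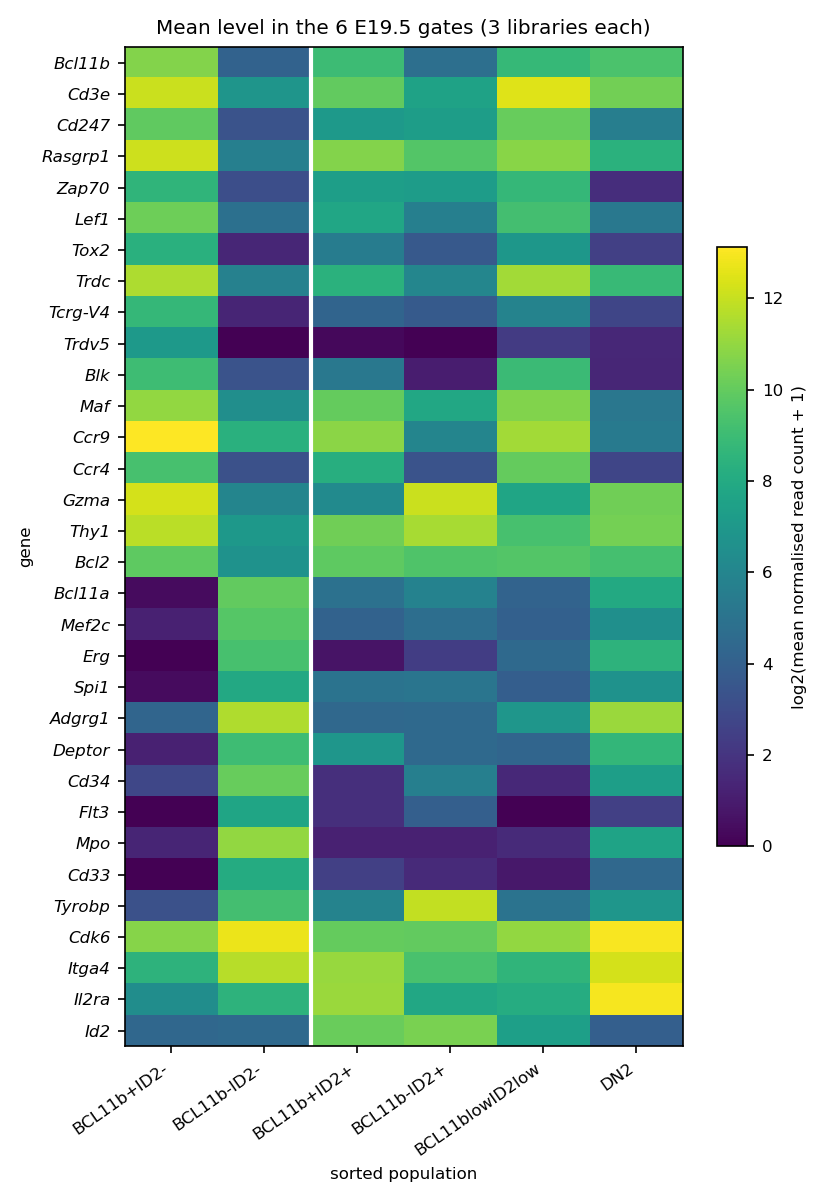
Mean normalised read count, as log2(mean + 1), of 32 named genes in the 6 E19.5 gates of 3 libraries each, with the compared gates left of the white line. Trdc and Cd3e are high in BCL11b+ID2- and BCL11blowID2low, and Adgrg1, Cdk6 and Itga4 are high in BCL11b-ID2- and DN2.

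The BCL11b difference among ID2-negative cells was then tested against the same difference among ID2-positive cells, which uses no library in common. The 2 differences were unequal at 1284 genes (limma interaction, adjusted p under 0.05), 9.28% of the 13840 tested, with 651 more positive and 633 more negative among ID2-negative cells. Gzma gave the largest positive value: it was higher in BCL11b+ID2- by 6.34 on the log2 scale, while the BCL11b+ID2+ minus BCL11b-ID2+ difference was -5.84, from means of 77.8 and 4394 (interaction 12.18 ± 0.44, adjusted p = 8.8e-15). Thy1 was 4.88 among ID2-negative and -1.14 among ID2-positive cells (interaction 6.02 ± 0.37, adjusted p = 2.1e-10). Cd247 was 6.74 among ID2-negative and -0.15 among ID2-positive cells (interaction 6.89 ± 0.54, adjusted p = 1.7e-08).

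Among ID2-positive cells Mpo averaged 1.33 in BCL11b+ID2+ and 1.3 in BCL11b-ID2+, so its BCL11b difference was -10.15 among ID2-negative and -0.22 among ID2-positive cells (interaction -9.93 ± 1.15, adjusted p = 4.5e-06). Of the stem and progenitor factors, 12 of 21 had a more negative difference among ID2-negative cells and none a more positive one. Of the NK-cell genes, 16 of 20 had a more positive difference among ID2-negative cells. Over all 13840 genes tested, 633 were more negative and 651 more positive. The NK list's median was -1.02 among ID2-negative cells, against -5.61 among ID2-positive cells. Ccr9 was 4.78 among ID2-negative and 5.12 among ID2-positive cells, and this difference did not pass (interaction -0.34 ± 0.56, adjusted p = 0.791). Tyrobp was -6.18 among ID2-negative and -6.11 among ID2-positive cells, which did not pass either (interaction -0.08 ± 0.67, adjusted p = 0.965).

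**Figure D5:**
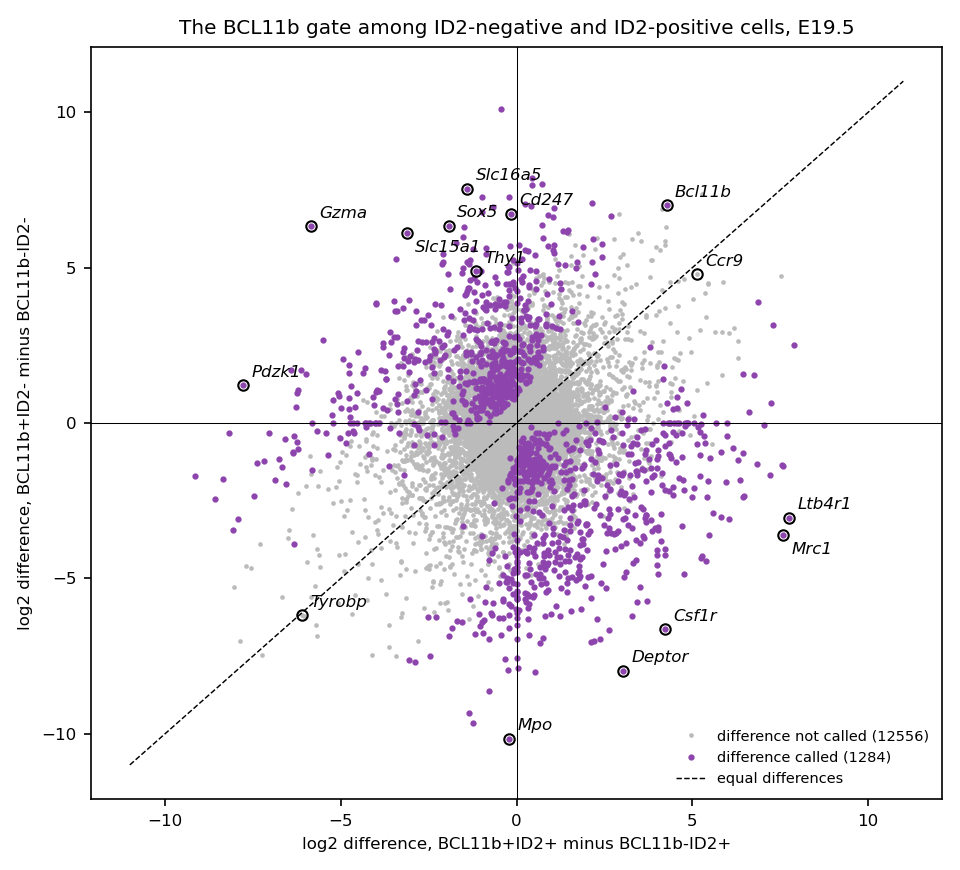
For each gene tested, the log2 difference between BCL11b+ID2- and BCL11b-ID2- (y axis) against that between BCL11b+ID2+ and BCL11b-ID2+ (x axis), with the 1284 genes whose differences were unequal at an adjusted p under 0.05 in purple and a dashed line of equal differences. Ccr9 and Tyrobp lie near the line, and Gzma, Mpo and Mrc1 far from it.

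The same gates at E15.5 came from other embryos and a table normalised on its own, so their differences are given as a description with no test. Of the genes higher in BCL11b+ID2- at E19.5, 978 were listed at E15.5 and 529 (54.1%) had a positive difference there, against 39.3% of all 13172 genes listed. Of the lower genes, 675 of 998 (67.6%) were negative at E15.5, against 55.5% of all. Myeloid genes were negative at E15.5 for 15 of 15 listed (median -2.84), and stem and progenitor factors for 19 of 21 (median -2.44). T-cell receptor genes were positive for 18 of 24 (median 1.29), whereas gamma-delta genes were positive for 11 of 22 (median 0.28).

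By gene, Bcl11b had E15.5 values of 1488, 927 and 4467 in BCL11b+ID2- against 6.39, 39.6 and 20.9 in BCL11b-ID2- (log2 difference 6.61). Mef2c had 1.46, 1.09 and 9.49 in BCL11b+ID2- against 1317, 997 and 1053 in BCL11b-ID2- (log2 difference -8.21). Mpo had 0.73, 3.26 and 15.8 in BCL11b+ID2- against 345, 246 and 591 in BCL11b-ID2- (log2 difference -6.21). Mpo and Mef2c were low in BCL11b+ID2- at both ages. Other genes of the E19.5 group that fell were abundant in both gates at E15.5. Erg averaged 6194 in BCL11b+ID2- and 7040 in BCL11b-ID2- (log2 difference -0.28). Adgrg1 averaged 1112 and 1330 (-0.67), and Deptor 1993 and 3684 (-1.13), in the same order. Rag2, lower in BCL11b+ID2- at E19.5, averaged 4933 in BCL11b+ID2- and 1462 in BCL11b-ID2- at E15.5 (log2 difference 1.73). Maf had 56.8, 353 and 76.0 in BCL11b+ID2- against 1030.2, 99.7 and 737 in BCL11b-ID2- (log2 difference -1.87). Blk had 0, 1.09 and 0 in BCL11b+ID2- against 74.6, 0 and 0 in BCL11b-ID2- (log2 difference -1.73). Maf, Blk and Rag2 were opposite in sign to E19.5. The E15.5 columns were matched to gates by the number in the column header and the barcode number in the labels. Mitochondrial ribosomal RNA took 50.8% to 76.0% of reads in E15.5 BCL11b+ID2- and 65.6% to 70.1% in E15.5 BCL11b-ID2-, and its part in these values was not tested.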

How the data were processed

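RNA from flow-sorted embryonic thymocytes was sequenced in 18 E19.5 libraries, 6 of them compared here. The authors deposited DESeq-normalised read counts per gene, the signal used for all tests, in 1 table per age. Trim Galore 0.50, STAR 2.6.0a and DESeq2 1.18.1 with the GRCm38 build are named in the submitters' processing notes, and strand handling is not stated there or elsewhere in the labels. All deposited values were whole multiples of the value of 1 read within 0.01 reads, so reads were recovered and normalised values could also be tested as counts. Depth and the precision it gives stand with the values; intervals cover counting error only. Gene symbols, matched by Ensembl ID for 26231 of 26244 genes, and coordinates come from GENCODE. In the E15.5 table, 8 columns were not used.

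Genes with a value of 10 or more in at least 3 E19.5 libraries (13840 of 26244) were tested with limma 3.58.1 (trend, robust; R 4.3.3) on log2(value + 1) over all 18 libraries with 1 mean per gate. Log2 differences are on that scale, which understates the change of low genes. A gene read in 1 gate alone can pass the filter through that gate, which partly sets the counts and medians of lists and families. P-values were adjusted over all genes tested by Benjamini-Hochberg, with a threshold of 0.05. The test was checked on simulated data. Alternatives were a pseudocount of 8, no filter, only the groups compared, a replicate block, TMM scaling, edgeR 4.0.16, DESeq2 1.42.0 and leaving out each library.

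Named genes were the 15 largest differences per direction without overlap and with a mean of at least 100, up to 4 called members per list and direction, and 5 per direction of the interaction, leaving out predicted, Rik, mitochondrial and ribosomal genes. Other genes were named after their values were seen, and some genes that the rule names are not reported here. The members and the 25 lists were chosen with earlier results of these data known.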

Additional observations from a re-analysis of the deposited data

Results flagged for a closer look

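For the 10 genes below, the BCL11b difference among ID2-negative cells was unequal to that among ID2-positive cells by the limma interaction test, and these were the 5 largest values in each direction with a mean of at least 100 in any of the 4 gates once predicted, Rik, mitochondrial and ribosomal genes were left out. Values are means of 3 libraries. A positive interaction means a more positive BCL11b difference among ID2-negative cells.

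Gzma averaged 4968 in BCL11b+ID2- and 62.4 in BCL11b-ID2-, and 77.8 in BCL11b+ID2+ and 4394 in BCL11b-ID2+ (interaction 12.18 ± 0.44 on the log2 scale, adjusted p = 8.8e-15). Slc15a1, a peptide transporter, averaged 118 in BCL11b+ID2- and 1.22 in BCL11b-ID2-, and 8.56 in BCL11b+ID2+ and 40.5 in BCL11b-ID2+ (interaction 9.22 ± 1.58 on the log2 scale, adjusted p = 0.00049). Pdzk1, a scaffold protein, averaged 2.76 in BCL11b+ID2- and 0.64 in BCL11b-ID2-, and 0 in BCL11b+ID2+ and 239 in BCL11b-ID2+ (interaction 9.01 ± 1.23 on the log2 scale, adjusted p = 3.9e-05). Slc16a5 averaged 381 in BCL11b+ID2- and 1.37 in BCL11b-ID2-, and 3.53 in BCL11b+ID2+ and 12.7 in BCL11b-ID2+ (interaction 8.94 ± 1.11 on the log2 scale, adjusted p = 1.2e-05). Sox5 averaged 160.1 in BCL11b+ID2- and 1.63 in BCL11b-ID2-, and 14.2 in BCL11b+ID2+ and 27.8 in BCL11b-ID2+ (interaction 8.28 ± 1.65 on the log2 scale, adjusted p = 0.0021). All 5 of these genes had a higher mean in BCL11b-ID2+ than in BCL11b+ID2+.

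Mrc1, the mannose receptor, averaged 1.43 in BCL11b+ID2- and 20.4 in BCL11b-ID2-, and 205 in BCL11b+ID2+ and 0 in BCL11b-ID2+ (interaction -11.20 ± 1.14 on the log2 scale, adjusted p = 9.2e-07). Deptor averaged 1.33 in BCL11b+ID2- and 522 in BCL11b-ID2-, and 117 in BCL11b+ID2+ and 21.8 in BCL11b-ID2+ (interaction -11.01 ± 1.1 on the log2 scale, adjusted p = 6.9e-07). Csf1r averaged 1.07 in BCL11b+ID2- and 161 in BCL11b-ID2-, and 146 in BCL11b+ID2+ and 11.4 in BCL11b-ID2+ (interaction -10.86 ± 1.23 on the log2 scale, adjusted p = 3.6e-06). Ltb4r1, a leukotriene B4 receptor, averaged 0.94 in BCL11b+ID2- and 15.9 in BCL11b-ID2-, and 228 in BCL11b+ID2+ and 0 in BCL11b-ID2+ (interaction -10.79 ± 1.23 on the log2 scale, adjusted p = 3.7e-06). Mpo averaged 1.54 in BCL11b+ID2- and 2051 in BCL11b-ID2-, and 1.33 in BCL11b+ID2+ and 1.3 in BCL11b-ID2+ (interaction -9.93 ± 1.15 on the log2 scale, adjusted p = 4.5e-06). Among ID2-positive cells Mpo had few reads in either gate. The Ltb4r1 difference between BCL11b+ID2- and BCL11b-ID2- alone was -3.04 on the log2 scale (adjusted p = 0.0181), and was not called without BCL11b+ID2- replicate 4 (adjusted p = 0.0698) or BCL11b-ID2- replicate 2 (adjusted p = 0.103). These differences were tested, and their causes were not.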

How the results depend on the processing

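The number of genes called between BCL11b+ID2- and BCL11b-ID2-, 2067, ranged from 1705 by edgeR to 2371 with the replicate block over the alternatives that kept all libraries, and from 1441 (without BCL11b+ID2- replicate 1) to 1981 (without BCL11b+ID2- replicate 4) when 1 library was left out. Without BCL11b+ID2- replicate 1, 738 genes were higher and 703 lower. The interaction count, 1284, ranged from 949 to 1546 over all alternatives. Of the calls, 1644 (79.5%) were also made by edgeR and 1867 (90.3%) by DESeq2 on recovered reads. The replicate block gave 2371 calls, and 1546 for the interaction. The replicate numbers that the gates share were not taken as pairs, since the labels do not say what they stand for. Same-numbered libraries deviated together with correlations of 0.059, 0.002 and 0.020, and BCL11b+ID2- replicate 4 correlated better with BCL11b-ID2- replicate 2. With 3 libraries a gate, these correlations cannot decide whether same-numbered libraries share an effect. Replicate 4 had the largest share of mitochondrial ribosomal RNA in each E19.5 gate, with 53.5% in BCL11b+ID2- and 50.3% in BCL11b-ID2-. The main test leaves the replicate number out, and its part in the differences was not tested. Of 117 named results, 18 fell short of the threshold in at least 1 alternative, 16 of them without a single library, and all 18 belong to the comparison of BCL11b+ID2- with BCL11b-ID2-. Id2, not called, ranged from -1.39 to 0.41 when 1 library was left out, and changed sign to 0.41 without BCL11b+ID2- replicate 1. The causes were not tested. DESeq2 alone did not call Iqch (adjusted p = 0.175) or Prg2 (adjusted p = 0.202), and neither count test called H2-Aa. Without the filter, Tcf4, Nkg7, Il17rb and Bub1b were not called (adjusted p = 0.0514 to 0.0744). With only the groups compared, Itgb1, Cd44, Bub1b, Tnfsf10 and Ltb4r1 were not (adjusted p = 0.0508 to 0.0763). Il17rb was not called under TMM scaling (adjusted p = 0.0511), nor Ltb4r1 with a pseudocount of 8 (adjusted p = 0.0559). The members called in a list moved by over 1.5 times for 7 lists. Lower B-lineage members numbered 4 by DESeq2, against 8. Lower chemokine receptor and homing genes numbered 3 with only the groups compared and 3 without BCL11b-ID2- replicate 4, against 6. Lower dendritic-cell genes numbered 5 without BCL11b+ID2- replicate 1 and 5 without BCL11b-ID2- replicate 4, against 8. Lower Notch pathway genes numbered 2 without BCL11b+ID2- replicate 4 and 2 without BCL11b-ID2- replicate 1, against 4. Lower NK genes numbered 5 by edgeR and 5 by DESeq2, against 3. Higher survival genes numbered 4 by DESeq2, against 2. Lower stromal genes numbered 4 with a pseudocount of 8, with only the groups compared and with the replicate block, against 2. Changes between counts of 3 or fewer are left out. With a pseudocount of 8, list medians were -3.36 for stem and progenitor factors, -2.16 for myeloid, -2.00 for B-lineage, -0.29 for NK, 1.05 for innate lymphoid and -1.62 for stromal genes. The gamma-delta median was 3.08 with that pseudocount, under the 3.1 of the T-cell receptor list. With 1 library left out, medians were 0.38 to 1.24 for GIMAP, 0.05 to 0.33 for mitochondrially encoded, -0.60 to -0.32 for Notch and -0.95 to 0.02 for interferon-response genes. TMM scaling moved the median log2 difference of all genes to -0.09, against -0.05. With 3 libraries a gate, values below a few reads a library limit precision for the 62 and 168 called genes with no read in the lower gate.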

Other observations

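The largest rise of all genes tested was in 5830411N06Rik, listed by RefSeq as a synonym of Scart2, a scavenger receptor gene; it was named after its values were seen, since the naming rule leaves out Rik symbols. It had 1248, 929 and 1155 in BCL11b+ID2- and no read in any BCL11b-ID2- library (log2 difference 10.11 ± 0.83 (SE), adjusted p = 8.8e-09). Its mean was 37.8 in BCL11b+ID2+, 39.3 in BCL11b-ID2+, 81.8 in BCL11blowID2low and 6.21 in DN2, all far under the BCL11b+ID2- mean of 1110.4.

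The gene lies at chr7:140247284-140300736 on the plus strand, next to Cd163l1, Olfr524 and Olfr525. Of 10 genes tested within 200 kb on each side, itself included, 4 rose and 1 fell. Over all genes tested, 7.51% were higher and 7.42% lower. The window was chosen for its largest rise and also holds Olfr524, named above for its rise, so the count cannot show a regional change. Whether changed genes cluster there was not tested. Olfr525 had 20.8, 23.6 and 9.22 in BCL11b+ID2- and no read in BCL11b-ID2- (log2 difference 4.14, adjusted p = 0.00659). Cd163l1 was 5.69 on the log2 scale, and the gene averaged 839 in BCL11b+ID2+ cells, 991 in BCL11b-ID2+ cells and 2186 in BCL11blowID2low cells. Paox, a polyamine oxidase, was the gene that fell, with 6.94, 3.21 and 21.2 in BCL11b+ID2- against 41.5, 59.3 and 52.8 in BCL11b-ID2- (log2 difference -2.51, adjusted p = 0.0395). The sources used here do not say how reads of adjoining genes were separated.

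Other gene families, counted by symbol, gave these values, to be set against 7.51% higher and 7.42% lower over all genes tested. Of 48 histone genes tested, 1 rose and none fell. Of 21 integrin genes, 4 rose and 5 fell. Of 14 killer-cell lectin-like receptor genes, which share sequence among themselves, 1 fell and none rose. Both Hox genes tested, Hoxa9 and Hoxa7, fell, and of 4 Sox genes Sox5 and Sox13 rose.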
